A study of Mus musculus with 57 samples.

Results

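The genes described here are 10 genes of the NF-kB pathway measured in whole kidneys of lupus-prone mice: the subunit genes Nfkb1, Nfkb2, Rela and Relb, the inhibitor and feedback genes Nfkbia, Tnfaip3, Birc3 and Bcl3, and the cytokine genes Tnf and Il1b. The 10 genes, and the gene and marker lists used below, were chosen with earlier results of these data known. Counts set beside the shares of all genes are therefore a description and not a test. Rows were taken by gene symbol, and each gene had 1 row in the table of each strain, so that 10 of the 16475 genes of each table were members. RNA of 57 kidney samples from 3 strains had been hybridised to Affymetrix arrays, 1 for each. NZB/W, NZM2410 and NZW/BXSB mice all develop an autoimmune disease like lupus with nephritis, so every group, controls included, carries a lupus-prone background, and no kidney of another background is analysed here. The NZB/W kidneys form 4 groups. They are 8 prenephritic of 16 weeks, 11 non-proteinuric of 23 weeks, 6 proteinuric of 23 weeks, and 10 nephritic and proteinuric of 36 weeks. Both groups of 23 weeks are labelled as from prenephritic mice, and the 6 proteinuric ones are called onset below. NZM2410 kidneys came from young prenephritic (n = 5) and sick nephritic mice (n = 5), and NZW/BXSB kidneys from non-proteinuric prenephritic (n = 6) and proteinuric nephritic mice (n = 6), with no age given in weeks. One label of the 36-week kidneys calls them prenephritic while another calls them nephritic, and the second was followed. The labels name no treatment and do not say whether each array is a separate animal, and the p-values therefore cover only the variation among these arrays, part of which may be technical.

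NF-kB is a family of transcription factors that work as dimers of subunits such as p50 (from Nfkb1), p52 (from Nfkb2), RelA and RelB. At rest most dimers are held in the cytoplasm by inhibitors of the IkB family. Signals such as TNF and IL-1 free RelA with p50 through the IKK kinases in the canonical pathway, and receptors such as the lymphotoxin beta receptor free RelB with p52 in the noncanonical one. The dimers switch on inflammatory genes as well as their own inhibitors, and in the kidney they act both in infiltrating leukocytes and in injured tubule, endothelial and glomerular cells. RNA levels do not report the activity or location of these proteins. In whole tissue, a lower or higher number of cells of one type and a lower or higher amount of RNA per cell cannot be told apart.

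The promoters of the members are shown first, because several of these genes are themselves known NF-kB targets. RefSeq promoter windows of 300 bases, 250 before and 50 after the start of a transcript, were used for 8 of the 10 genes, namely all but Nfkb1 and Relb, in mouse assembly GRCm38.p6. Both strands were searched for the 10-base kappaB consensus, and matches are in capitals. Of these 8 genes, 4 had a match, namely Nfkb2, Nfkbia, Tnfaip3 and Bcl3, against 5.14% of the 27025 genes of the promoter table and 4.51% of its 32851 windows. The first windows of Nfkb2 and Tnfaip3 are printed of their several. The Nfkb2 window is chr19:46304487-46304786 on the + strand, with overlapping matches from position -39 relative to the start and another from position -11. The Nfkbia window is chr12:55492598-55492897 on the - strand, with a match from position -29. The Tnfaip3 window is chr10:19015361-19015660 on the - strand, with matches from positions -125 and -12, and the Bcl3 window is chr7:19822706-19823005 on the - strand, with a match from position +3. Birc3, at chr9:7873121-7873420 on the - strand, and Tnf, at chr17:35201958-35202257 on the - strand, are printed as windows without a match. A match is a description of the letters and not a binding site, and no match says only that these letters are not in this window.
Nfkb2: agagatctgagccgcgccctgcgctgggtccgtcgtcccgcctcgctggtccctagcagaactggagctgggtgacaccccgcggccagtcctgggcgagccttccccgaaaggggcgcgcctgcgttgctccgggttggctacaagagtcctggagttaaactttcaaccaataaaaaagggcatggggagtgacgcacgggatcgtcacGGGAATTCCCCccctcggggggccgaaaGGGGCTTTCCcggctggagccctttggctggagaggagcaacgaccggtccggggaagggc
Nfkbia: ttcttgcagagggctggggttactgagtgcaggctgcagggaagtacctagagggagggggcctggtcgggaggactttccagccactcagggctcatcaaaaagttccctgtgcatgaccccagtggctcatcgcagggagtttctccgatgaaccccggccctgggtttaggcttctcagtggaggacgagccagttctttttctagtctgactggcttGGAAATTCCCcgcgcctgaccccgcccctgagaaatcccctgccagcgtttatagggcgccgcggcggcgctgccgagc
Tnfaip3: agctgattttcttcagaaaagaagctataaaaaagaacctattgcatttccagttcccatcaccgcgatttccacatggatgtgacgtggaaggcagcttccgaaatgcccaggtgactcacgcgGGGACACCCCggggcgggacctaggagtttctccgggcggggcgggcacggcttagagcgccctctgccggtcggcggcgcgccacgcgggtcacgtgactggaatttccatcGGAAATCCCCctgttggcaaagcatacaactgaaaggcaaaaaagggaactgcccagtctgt
Bcl3: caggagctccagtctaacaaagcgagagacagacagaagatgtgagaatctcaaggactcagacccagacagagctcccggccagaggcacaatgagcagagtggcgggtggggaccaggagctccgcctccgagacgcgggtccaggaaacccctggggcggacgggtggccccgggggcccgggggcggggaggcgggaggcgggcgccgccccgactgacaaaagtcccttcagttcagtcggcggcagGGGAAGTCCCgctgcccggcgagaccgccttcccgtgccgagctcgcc
Birc3: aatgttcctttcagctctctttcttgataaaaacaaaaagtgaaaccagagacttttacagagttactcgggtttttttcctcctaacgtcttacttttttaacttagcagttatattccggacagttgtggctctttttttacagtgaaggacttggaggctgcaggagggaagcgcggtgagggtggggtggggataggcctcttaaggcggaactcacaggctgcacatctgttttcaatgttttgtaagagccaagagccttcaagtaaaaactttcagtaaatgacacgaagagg
Tnf: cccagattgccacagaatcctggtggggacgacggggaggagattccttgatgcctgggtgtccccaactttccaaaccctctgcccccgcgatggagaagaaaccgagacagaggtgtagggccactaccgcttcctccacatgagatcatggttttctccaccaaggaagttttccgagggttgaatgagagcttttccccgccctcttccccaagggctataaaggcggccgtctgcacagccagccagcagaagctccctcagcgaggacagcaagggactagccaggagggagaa

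Levels are deposited log2 values from robust multi-array averaging (RMA), and array medians lay between 6.97 and 7.06 in NZB/W, between 7.12 and 7.20 in NZM2410 and between 7.68 and 7.75 in NZW/BXSB. Levels are therefore compared within a strain and within a gene only. The authors' flag for expression above baseline covered all 10 members in each table, among 13366, 13539 and 14191 flagged genes. All 12 proximal tubule markers and all 6 podocyte markers were flagged too. The mean of 7 adrenal cortex markers ran from 5.54 over 8.68 to 10.26 in non-proteinuric kidneys of 23 weeks, from 6.03 over 6.75 to 7.67 at 16 weeks, from 5.75 over 6.85 to 9.19 at onset and from 5.19 over 6.18 to 7.29 at 36 weeks. Of the 7 markers 5 were called lower at 36 weeks than in the non-proteinuric kidneys, the control group of the onset comparison as well, and their part in those results was not tested. The Gapdh 3' minus 5' signal, a measure of RNA integrity, averaged 0.015 at 16 weeks, -0.0083 in non-proteinuric kidneys at 23 weeks, 0.108 at onset and 0.204 at 36 weeks. The exact permutation test over the arrays gave an adjusted p of 0.0918 for 36 against 16 weeks, and a permutation test gave 0.0088 for 36 weeks against 23 weeks without proteinuria (24 tests in the family). The spiked hybridization controls averaged 10.04 at 16 weeks, 9.57 at 23 weeks without proteinuria and 10.27 at onset. The exact permutation test gave an adjusted p of 0.0038 for the non-proteinuric kidneys of 23 weeks against 16 weeks, and the same against onset. The part of these measures in the results was not tested beyond the fits that hold them as a covariate. Arrays of 1 group correlated with each other at a median r of 0.971 to 0.996, and the lowest were replicate 5 at onset and replicate 5 at 36 weeks.

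In NZB/W kidneys, 9 of the 10 genes were higher at 36 weeks with nephritis than at 16 weeks, and none was lower. Called means an adjusted p under 0.05 in limma, two-sided, with adjustment over all 16475 genes. In the same comparison 11% of all genes were called higher and 15.3% lower. The members' changes ranged from 0.28 to 1.07 on the log2 scale with a median of 0.61, beside a median of -0.01 over all genes. The 2 groups did not overlap for 3 members, Rela, Relb and Birc3, as for 1.38% of all genes. The plot of levels in the 4 NZB/W groups shows each array.

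**Figure D1:**
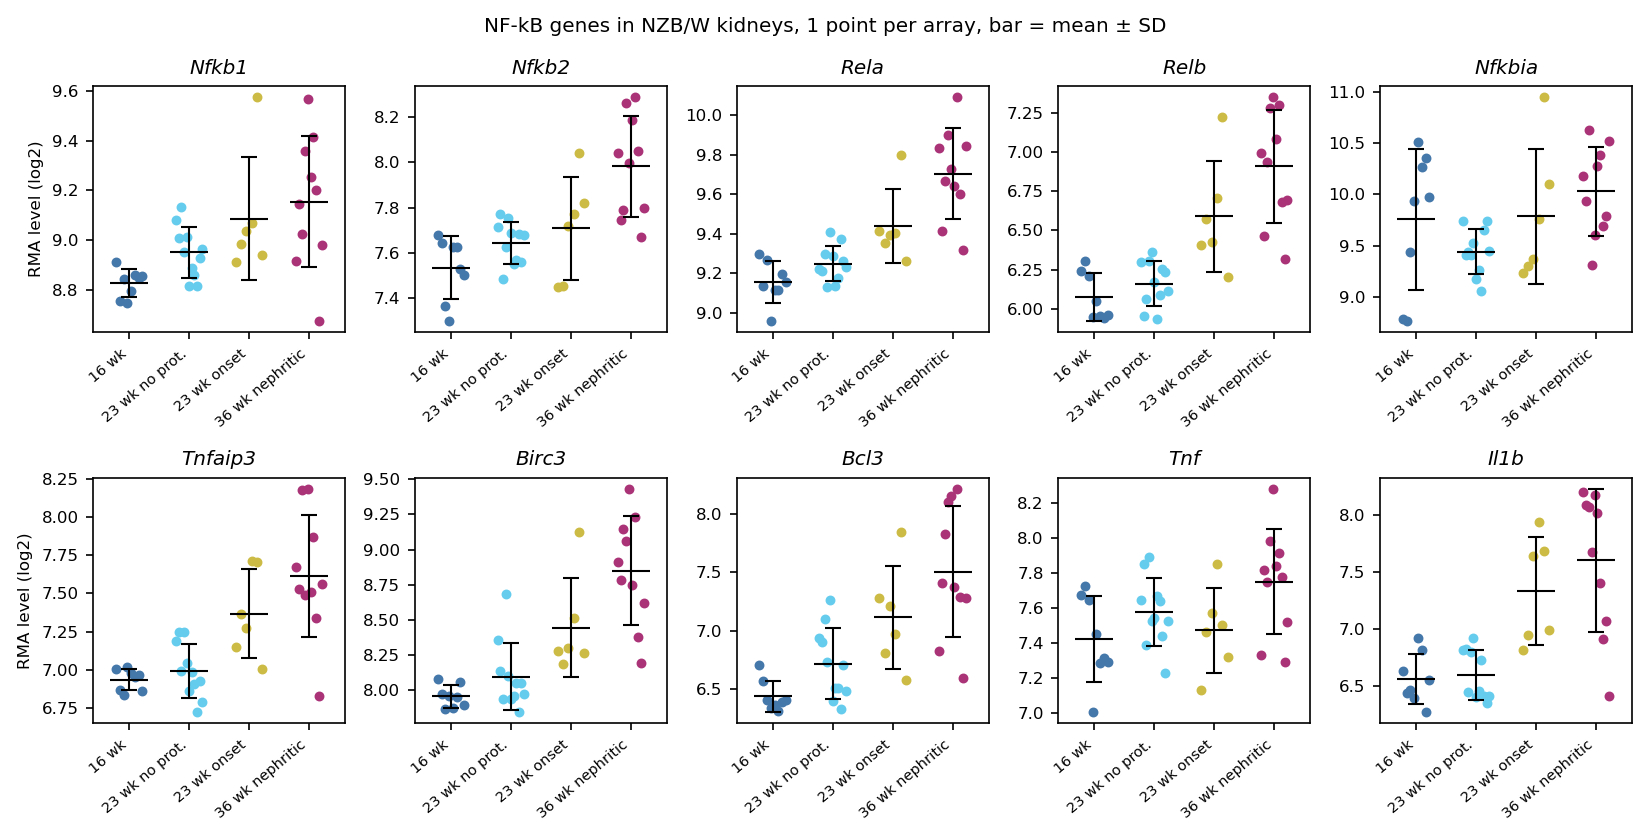
RMA levels (log2, y axis) of the 10 NF-kB genes in the 4 NZB/W groups (x axis), with 1 point per array and bars for mean ± SD over 8, 11, 6 and 10 arrays. Relb, Rela and Birc3 at 36 weeks lie above every 16-week array, while the 16-week Nfkbia levels spread from 8.77 to 10.51.

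Among the subunits, Relb, the subunit of the noncanonical pathway, changed most. Its 16-week levels ran from 5.94 over a median of 6.004 to 6.30, and its 36-week levels from 6.32 over 6.97 to 7.35. The lowest nephritic kidney was thus just above the highest young one. The change was 0.83 ± 0.12 (log2 ± standard error, adjusted p = 9.02e-06), a 1.78-fold rise. Rela, the main transactivating subunit of the canonical pathway, ran from 8.96 over 9.15 to 9.30 at 16 weeks and from 9.32 over 9.70 to 10.09 at 36 weeks. These groups did not overlap either, and the rise was 0.55 ± 0.08 (adjusted p = 5.17e-06). Nfkb2, the gene of p100 and p52, ran from 7.30 over 7.58 to 7.68 and from 7.67 over 8.02 to 8.29. A single 36-week array, the lowest, lay within the young range, and the rise was 0.45 ± 0.08 (adjusted p = 0.000118). Nfkb1, the gene of p105 and p50, rose least, by 0.33 ± 0.09 (adjusted p = 0.00458). Its 16-week levels were tight, from 8.74 over 8.85 to 8.91, while those at 36 weeks spread from 8.68 over 9.17 to 9.57, so that the lowest nephritic kidney was below all young ones.

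The feedback genes other than Nfkbia rose by similar or larger amounts. Bcl3, an atypical IkB protein that works in the nucleus with p50 and p52, ran from 6.32 over 6.40 to 6.71 at 16 weeks and from 6.60 over 7.39 to 8.21 at 36 weeks. Its change of 1.07 ± 0.18 was the largest of the 10 (adjusted p = 5.23e-05), and only the lowest 36-week array reached into the young range. Birc3, the gene of the ubiquitin ligase cIAP2 of the TNF receptor complex, ran from 7.87 over 7.96 to 8.08 and from 8.19 over 8.85 to 9.43. The groups did not overlap, and the rise was 0.89 ± 0.13 (adjusted p = 1.06e-05). Tnfaip3, the gene of the ubiquitin-editing enzyme A20 that ends NF-kB signals, ran from 6.84 over 6.96 to 7.02 and from 6.83 over 7.54 to 8.18. Of the 10 nephritic kidneys 9 were above the young mean, and the rise was 0.68 ± 0.12 (adjusted p = 0.000114).

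Nfkbia, the gene of the classical inhibitor IkB alpha, was the member that did not pass the test. At 16 weeks its levels ran from 8.77 over 9.96 to 10.51, with replicates 1 and 2 at 8.79 and 8.77, replicate 3 at 9.44 and replicates 4 to 8 between 9.94 and 10.51. At 36 weeks it ran from 9.31 over 10.06 to 10.63, and the groups overlapped widely. The difference was 0.28 ± 0.22 (adjusted p = 0.405), with a 95% confidence interval from -0.18 to 0.73. With the 16-week group reduced to replicates 4 to 8, a choice made after seeing these values, the difference became -0.18. The same 3 arrays had the 3 highest 16-week levels of Tnf, 7.67, 7.72 and 7.64 against 7.01 to 7.45 in the others, and the 3 highest of Relb, 6.24, 6.30 and 6.21 against 5.94 to 6.05. Their Gapdh 3' minus 5' signals were 0.137, 0.144 and 0.102, against -0.076 to -0.0084 in the other 5, and the part of this measure in the Nfkbia spread was not tested. Without these 3 arrays 9 members were still called in the comparison with 36 weeks.

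The cytokine genes differed in size of change. Il1b, the gene of interleukin-1 beta, ran from 6.27 over 6.51 to 6.93 at 16 weeks and from 6.42 over 7.85 to 8.21 at 36 weeks. Of the 10 nephritic kidneys 6 were at 7.68 or above, and replicates 8, 9 and 10 were at 6.92, 7.07 and 6.42. The rise was 1.04 ± 0.19 (adjusted p = 0.000137), a 2.06-fold rise. Tnf, the gene of tumor necrosis factor, ran from 7.01 over 7.38 to 7.72 and from 7.29 over 7.80 to 8.28. The groups overlapped widely and the rise was 0.33 ± 0.11 (adjusted p = 0.0309). That call was lost without 1 array in 7 of 18 cases, namely 16-week replicate 4, 6, 7 or 8 or 36-week replicate 4, 5 or 7, with changes of 0.27 to 0.31 and adjusted p of 0.0513 to 0.0925. It was also lost with the Gapdh signal as a covariate (adjusted p = 0.0863), with a random block for samples whose titles share a stem (0.132) and in a fit of only the 2 groups (0.0721).

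Between 16 and 23 weeks without proteinuria no member was called in either direction by limma. Only 0.0182% of all genes, 3 in number, were called higher in that comparison, and none lower. None of the 10 had an unadjusted p under 0.05. Differences ran from -0.31 for Nfkbia to 0.28 for Bcl3, with a median of 0.10 beside 0.01 over all genes. The intervals differ in what they leave possible. Bcl3 ran from 6.33 over 6.71 to 7.27 at 23 weeks, and the interval of its difference reached from -0.08 to 0.63. For Rela, which ran from 9.13 over 9.23 to 9.41, the interval reached only to 0.24. Nfkbia was less spread at 23 weeks, from 9.06 over 9.44 to 9.74. Its difference depended on the fit: with array weights it was -0.68 and called lower (adjusted p = 0.00356), and over all alternatives it ran from -0.77 to -0.15. Tnf was called higher with array weights too (0.22, adjusted p = 0.0424). In that fit 3697 of all 16475 genes were called, 1682 of them higher, so both calls stand beside a large share of all genes. Every member's highest level among the 23-week non-proteinuric kidneys fell in replicates 1 to 5, whose titles share a stem. Their proximal tubule markers averaged 11.48 to 11.64 and their phagocyte markers 7.36 to 7.55. In replicates 6 to 11 these averages were 11.74 to 11.98 and 7.08 to 7.33. The part of this split in the comparisons with that group was not tested beyond the random block for stems.

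In the onset group 1 member was called against each non-proteinuric group. Against the age-matched non-proteinuric kidneys this was Il1b, with 1.71% of all genes called higher. Its levels at onset were 6.82, 6.95, 7.64, 7.94, 7.69 and 6.998 in replicates 1 to 6, against 6.36 over 6.46 to 6.92 in the 11 non-proteinuric kidneys. All 6 were above the non-proteinuric mean, 5 were above the highest non-proteinuric kidney, and the rise was 0.74 ± 0.20 (adjusted p = 0.0468). The call did not survive small changes: it was lost without any 1 of 13 arrays, namely non-proteinuric replicates 2 to 11 and onset replicates 3, 4 and 5, with changes of 0.62 to 0.77 and adjusted p of 0.0513 to 0.179. It was also lost with the Gapdh signal as a covariate (adjusted p = 0.128) and with the replicate block (0.48, adjusted p = 0.161). The random block for title stems gave an adjusted p of 0.0741. With the hybridization controls as a covariate the Il1b change was 0.81 (adjusted p = 0.102). Those controls ran from 10.03 to 10.61 at onset and from 9.40 to 9.92 without proteinuria. The ranges do not overlap, so that fit cannot tell this control from the group. Among the others, Relb at onset read 6.41, 6.57, 6.43, 6.71, 7.23 and 6.20, against 5.93 over 6.17 to 6.36. That was 0.43 ± 0.13 (adjusted p = 0.0682), and 5 of the 6 onset kidneys were above the whole non-proteinuric range. Without onset replicate 6, the lowest, the Relb difference was 0.51 (adjusted p = 0.0323). Calls gained by leaving out an array that is extreme in these same levels, here and below, are a description and not support. The median change of the 10 members was 0.35, beside -0.02 over all genes, and Tnf was the one member with a negative difference, -0.10 ± 0.12 (adjusted p = 0.645).

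Against 16 weeks the called member at onset was Relb, with 1.83% of all genes called higher. The difference was 0.52 ± 0.14 (adjusted p = 0.0399), and all 6 onset kidneys were above the 16-week mean. It was lost without any 1 of 10 arrays, namely 16-week replicates 3 to 8 and onset replicates 2 to 5, with changes of 0.39 to 0.55 and adjusted p of 0.0514 to 0.223. It was also lost with the replicate block (adjusted p = 0.0716), the random block for stems (0.14), the Gapdh covariate (0.08) and quantile normalization (0.0591). Il1b missed the threshold there, at 0.78 ± 0.22 (adjusted p = 0.0512), and Bcl3, Rela and Birc3 had adjusted p of 0.0751, 0.0819 and 0.0833. Il1b was called without onset replicate 1, 2 or 6 (0.84 to 0.88, adjusted p of 0.0249 to 0.0446), and Bcl3 without onset replicate 6 (0.78, adjusted p = 0.0352), as was Rela (0.32, adjusted p = 0.05). The Birc3 groups did not overlap, with onset levels of 8.28, 8.19, 8.30, 8.51, 9.13 and 8.27 above the 16-week maximum of 8.08. The share of all genes with onset kidneys entirely above the 16-week range was 1.35%.

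At 36 weeks 8 members were higher than in non-proteinuric kidneys of 23 weeks, all but Nfkb1 (adjusted p = 0.0602) and Tnf (adjusted p = 0.259), with 9.52% of all genes called higher. The median change was 0.61, beside -0.02 over all genes. Nfkbia was called here, at 0.59 ± 0.21 (adjusted p = 0.035), and not against 16 weeks; the 2 comparisons share the 36-week arrays. That call was lost without 1 of 8 arrays, namely 23-week replicate 6, 7 or 8 or 36-week replicate 1, 3, 6, 7 or 10, with changes of 0.52 to 0.57 and adjusted p of 0.0513 to 0.0725. It was also lost with the Gapdh signal (adjusted p = 0.0831) or the hybridization controls (0.054) as a covariate and with the random block for stems (0.172). Nfkb1 in turn was called without 23-week replicate 3 or 36-week replicate 1, 9 or 10, with changes of 0.22 to 0.26 and adjusted p of 0.00823 to 0.0459.

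Between onset and 36 weeks no member was called by limma, with 2.32% of all genes called, counting both directions, and 0.571% called higher. All 10 differences were positive, from 0.07 for Nfkb1 to 0.41 for Birc3, with a median of 0.27 beside 0.00 over all genes. Unadjusted p-values were under 0.05 for 5 members, Nfkb2, Rela, Relb, Birc3 and Tnf. Replicate 5 at onset bears on this count. It was the highest onset kidney for 7 of the 10 members, with Nfkb1 at 9.58 and Nfkbia at 10.95. Its phagocyte markers averaged 8.94, its proximal tubule markers 10.16 against 11.55 to 11.85 in the other 5, and its Gapdh 3' minus 5' signal was 0.463. Without it Nfkb2, Rela, Relb and Birc3 were called, with changes of 0.34 to 0.54 and adjusted p of 0.00659 to 0.0182. That array was singled out by these same levels, so those calls are a description. The calls over all genes move with such omissions too. They numbered 382 with all arrays and ran from 19 to 2008 over the 16 omissions of 1 array. Calls also appeared without 36-week replicate 2 (Rela), 9 (Rela, Nfkb2 and Birc3) or 10 (Nfkb2).

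In NZM2410 kidneys 9 of 10 members were higher in nephritis and none was lower, with 11.4% of all genes called higher and 13.8% lower. The groups did not overlap for 8 members, against 7.81% of all genes. The median change was 0.87 beside -0.01 over all genes. Relb changed most of the 10. It was 6.21, 6.13, 6.20, 6.06 and 5.93 in the prenephritic kidneys and 8.17, 7.74, 7.93, 7.12 and 7.56 in the nephritic ones. Every nephritic kidney lay well above every prenephritic one, and the rise was 1.60 ± 0.16 (adjusted p = 0.000139), 3.03-fold. Tnfaip3 was 6.86, 6.72, 6.83, 6.79 and 6.72 before and 8.48, 8.44, 8.47, 7.32 and 7.94 in nephritis. Replicate 4 was the lowest nephritic kidney, and the rise was 1.35 ± 0.19 (adjusted p = 0.000575). Bcl3 went from 6.28, 6.43, 6.34, 6.19 and 6.29 to 7.77, 7.63, 7.71, 7.36 and 7.73. Both groups were tight, and the rise of 1.33 ± 0.09 had the smallest adjusted p of the 10, 1.4e-05.

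Birc3 in NZM2410 went from 8.002, 8.03, 7.87, 7.82 and 7.79 to 9.69, 9.36, 9.30, 8.65 and 8.90, a rise of 1.28 ± 0.16 (adjusted p = 0.000336). Rela went from 8.77, 8.80, 8.68, 8.72 and 8.88 to 9.94, 9.72, 9.80, 9.14 and 9.57, a rise of 0.86 ± 0.13 (adjusted p = 0.000665). Both genes were lowest in nephritic replicate 4 and highest in replicate 1. Nfkbia, which did not pass in NZB/W between 16 and 36 weeks, rose here by 0.88 ± 0.17 (adjusted p = 0.00315). Its prenephritic levels were 9.18, 9.54, 9.57, 9.61 and 9.68 and its nephritic ones 10.77, 10.503, 10.61, 9.71 and 10.38, so replicate 4 was barely above the prenephritic range. Nfkb2 rose by 0.60 ± 0.09 and Nfkb1 by 0.51 ± 0.07, with adjusted p of 0.000671 and 0.000524.

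The cytokine genes of NZM2410 gave weaker results. Il1b was 6.39, 6.17, 6.47, 6.20 and 6.61 before and 6.33, 6.78, 7.02, 7.02 and 7.53 in nephritis, with replicate 1 within the prenephritic range. The rise was 0.57 ± 0.18 (adjusted p = 0.0361), and the call was lost without 1 of 7 of the 10 arrays, prenephritic replicate 1, 2, 3 or 4 or nephritic replicate 3, 4 or 5 (changes of 0.42 to 0.60, adjusted p of 0.0547 to 0.0843). Tnf was 6.51, 6.51, 6.52, 6.42 and 6.97 before and 6.80, 6.92, 6.94, 6.84 and 6.75 in nephritis. Prenephritic replicate 5 alone lay above the nephritic levels, the difference was 0.26 ± 0.10 (adjusted p = 0.0738), and without that array it was 0.36 (adjusted p = 0.00256). That omission too was picked by the Tnf levels themselves.

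**Figure D2:**
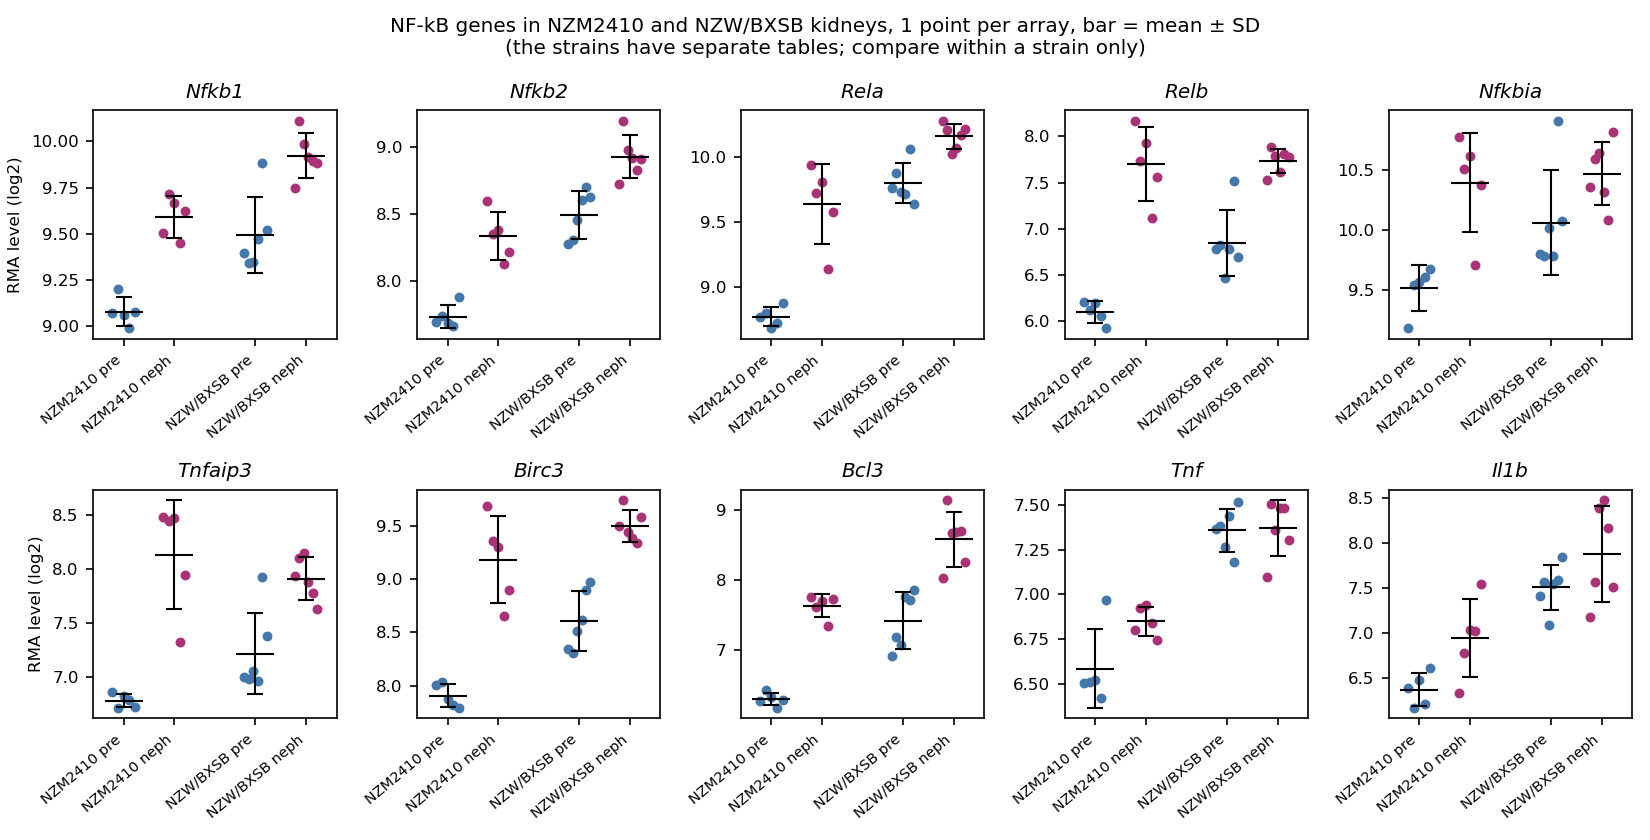
RMA levels (log2, y axis) of the 10 genes in prenephritic and nephritic NZM2410 kidneys (5 and 5 arrays) and NZW/BXSB kidneys (6 and 6 arrays) on the x axis, with bars for mean ± SD. For 8 genes in NZM2410 and 4 in NZW/BXSB every nephritic array lies above every prenephritic one; levels are not comparable between the strains.

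In NZW/BXSB kidneys 7 members were higher in nephritis and none lower, with 11.4% of all genes called higher and 8.73% lower. The groups did not overlap for Nfkb2, Relb, Birc3 and Bcl3, against 5.03% of all genes, and the median change was 0.43 beside -0.03 over all genes. Bcl3 ran from 6.93 over 7.45 to 7.86 before and from 8.03 over 8.68 to 9.15 in nephritis, a rise of 1.16 ± 0.20 (adjusted p = 0.00216). Birc3 ran from 8.31 over 8.56 to 8.97 and from 9.33 over 9.47 to 9.74, a rise of 0.89 ± 0.12 (adjusted p = 0.00051). Relb ran from 6.47 over 6.78 to 7.52 and from 7.53 over 7.78 to 7.89, so that the groups came close without overlapping, and rose by 0.89 ± 0.14 (adjusted p = 0.00124). Tnfaip3 rose by 0.69 ± 0.16, Nfkb1 and Nfkb2 by 0.43 ± 0.09 each and Rela by 0.36 ± 0.07, with adjusted p between 0.00431 and 0.00804.

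Prenephritic replicate 5 of NZW/BXSB was the highest of its group for 6 of the 10 members, with Nfkbia at 10.91 against 9.78 to 10.08 in the other 5 and Tnfaip3 at 7.92 against 6.97 to 7.38. Its phagocyte markers averaged 8.34, the highest of the group, whose lowest was 7.39. The Nfkbia difference was 0.41 ± 0.18 (adjusted p = 0.137) with that array and 0.57 (adjusted p = 0.00649) without it. Since the array was singled out by its own high levels, the second value is a description. Il1b ran from 7.09 over 7.55 to 7.84 before and from 7.18 over 7.86 to 8.47 in nephritis, and did not pass the test (0.37 ± 0.21, adjusted p = 0.235). Tnf ran from 7.18 over 7.38 to 7.52 and from 7.10 over 7.42 to 7.504. The groups covered the same range, and the 95% confidence interval of the difference of 0.01 was -0.15 to 0.18.

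**Figure D3:**
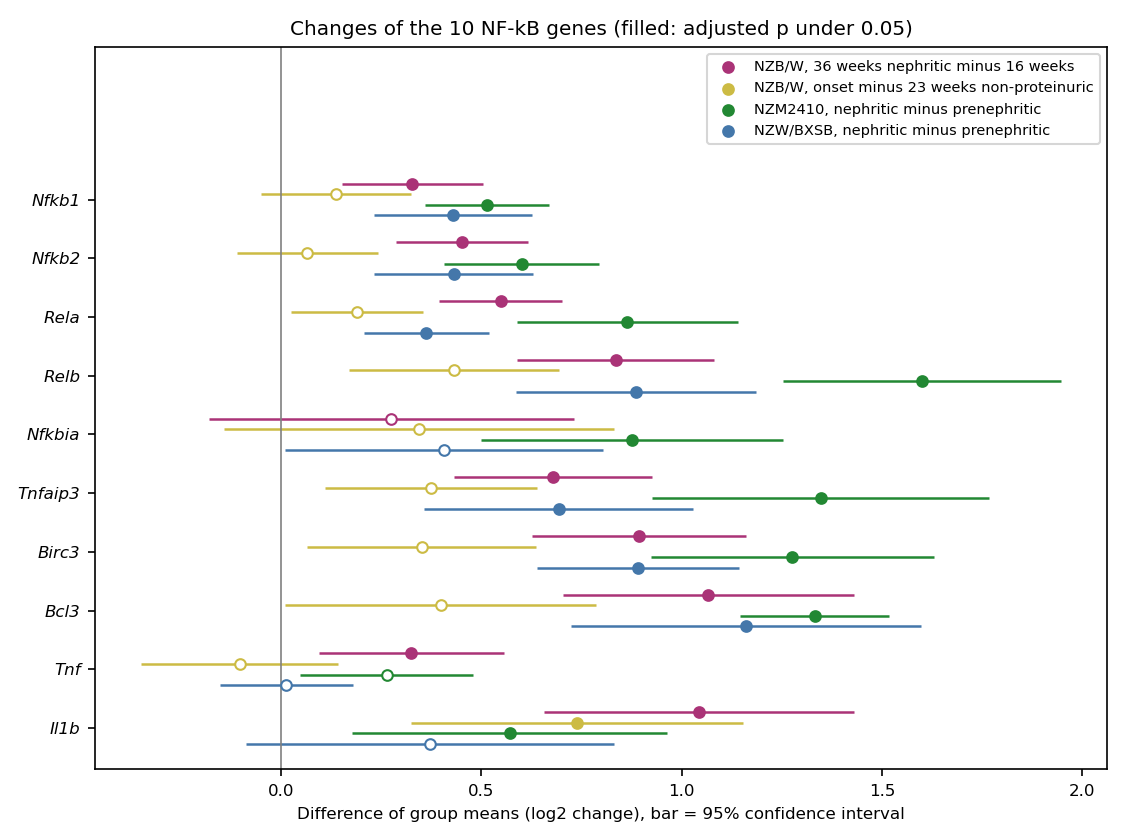
Log2 changes (x axis) of the 10 genes (y axis) in 4 comparisons, with 95% confidence intervals from limma and filled points for an adjusted p under 0.05. Relb in NZM2410, at 1.60, is the point farthest right.

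The changes with nephritis were set against each other between strains by a test of the difference of the changes, adjusted over all genes. The NZB/W change spans 16 to 36 weeks, so nephritis and age cannot be told apart in it. Ages in weeks are not given for the other strains, so a strain difference cannot be told apart from a difference in age. Relb rose less in NZB/W, from 16 to 36 weeks, than in NZM2410, by -0.76 ± 0.20 (adjusted p = 0.0449), where 1.72% of all genes were called. It was the one member called in that contrast. Between NZM2410 and NZW/BXSB, where 5.53% of all genes were called, Rela (0.50 ± 0.15, adjusted p = 0.0498) and Relb (0.71 ± 0.21, adjusted p = 0.0477) rose more in NZM2410. These calls stand near the threshold: Relb in the first contrast was lost without any 1 of 16 of 28 arrays (differences of -0.80 to -0.65, adjusted p of 0.0504 to 0.107). In the second contrast Rela was lost without any 1 of 17 of 22 arrays (adjusted p of 0.0536 to 0.115) and Relb without any 1 of 16 (0.054 to 0.102). Rela was also lost there with the replicate block (adjusted p = 0.0575) and Relb with quantile normalization (0.0562). The arrays were, in both, all prenephritic NZM2410 replicates, nephritic NZM2410 replicates 1, 2, 3 and 5, prenephritic NZW/BXSB replicates 1, 2 and 5 and nephritic NZW/BXSB replicates 3, 4 and 5, to which prenephritic replicate 3 and nephritic replicate 2 added for Rela and nephritic replicate 1 for Relb. In the first contrast they were all prenephritic NZM2410 replicates, nephritic NZM2410 replicates 1, 2, 3 and 5, NZB/W 16-week replicates 1, 2, 5 and 6 and 36-week replicates 2, 8 and 9.

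No member was called between NZB/W and NZW/BXSB, where 5.77% of all genes were called by limma and 2 members, Tnf and Il1b, had an unadjusted p under 0.05. The differences were 0.31 ± 0.14 for Tnf (adjusted p = 0.158) and 0.67 ± 0.29 for Il1b (adjusted p = 0.15), both larger in NZB/W. For Birc3 the changes were 0.89 in each, and the interval of their difference ran from -0.35 to 0.36, so a difference of that size remains possible. Nephritic replicate 4 of NZM2410 bears on these contrasts. It was the lowest of its group for 8 of the 10 members, and its proximal tubule markers averaged 11.79, against 10.33 to 11.09 in the other 4. Without it Rela, Tnfaip3 and Nfkbia also differed between NZB/W and NZM2410 (-0.44, -0.87 and -0.77, adjusted p of 0.012, 0.000605 and 0.0488), and Tnfaip3 between NZM2410 and NZW/BXSB (0.86, adjusted p = 0.00455). Without prenephritic replicate 5 of NZM2410 Tnf also differed in the latter contrast (0.35, adjusted p = 0.0401). Both arrays were singled out by the members' own levels, so these added calls are a description and not support. Over all omissions of 1 array, genes called in all ran from 138 to 1170 for NZB/W against NZM2410. For NZM2410 against NZW/BXSB they ran from 507 to 1886.

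Within the 36-week group the extremes of most members fell in the same few kidneys. Replicate 9 was the lowest of the 10 for 8 members, all but Nfkbia and Il1b, and replicates 5 and 7 together held the highest level of 8 members. Replicate 9 had a phagocyte marker mean of 8.01 and replicate 5 one of 9.15, and their proximal tubule means were 11.14 and 9.97. The kidneys with the most extreme marker means were others. Replicate 8 had the lowest phagocyte mean, 7.95, and the highest tubule mean, 11.47, and was the lowest for 0 members. Replicate 1 had the highest phagocyte mean, 9.43, and was the highest for 1 member. Nfkbia had other extremes, with replicates 3 and 10 highest, at 10.63 and 10.52, and replicates 4 and 5 lowest, at 9.31 and 9.61.

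Some titles share a stem that the labels do not explain, and 4 stems held samples of 2 groups that were compared. In 2 non-proteinuric and 2 onset kidneys of 23 weeks that share one, Il1b averaged 6.41 and 7.45 and Tnfaip3 differed by 0.74. Of the 10 members 9 were higher at onset there, and Nfkb2 differed by -0.073. In each of 2 NZW/BXSB pairs of 1 prenephritic and 1 nephritic kidney, Relb differed by 1.02 and 1.19 and Bcl3 by 0.94 and 1.29. All 10 members were higher in the nephritic kidney of the first pair, with Tnf lowest at 0.045, and 8 of 10 in that of the second, where Il1b differed by -0.29 and Tnf by -0.013. In 4 kidneys of 16 weeks and 1 of onset the differences were smaller, with a highest of 0.35 for Il1b and a lowest of -0.18 for Nfkbia. Those values come from too few arrays for a test within a stem. In the fits with the stem as a random block, the correlation within a stem was 0.46 in NZB/W and 0.30 in NZW/BXSB. The main p-values treat the arrays as independent and do not allow for it. With that block 8 members and 2570 of all genes were called from 16 to 36 weeks, against 9 and 4338 in the main fit.

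The wider pathway was read from 4 lists, 107 measured genes in all beside the members. From 16 to 36 weeks 52 of the 107 were higher and 4 lower, beside 11% and 15.3% of all genes, with a median change of 0.21. Of 32 other subunits, inhibitors and kinases, 9 were higher and 2 lower, Chuk and Commd1, with a median of 0.09. The 4 with the largest changes are inhibitors or kinases of the pathway: Nfkbie (1.12 ± 0.16), the gene of IkB epsilon, Nfkbiz (1.11 ± 0.18), that of the nuclear IkB zeta, Ikbke (0.74 ± 0.13), a kinase related to IKK, and Tnip1 (0.46 ± 0.08), a partner of A20. Of 32 ligands, receptors and adaptors of TNF and IL-1, 18 were higher and none lower. They include Ltb (1.82 ± 0.30), the gene of lymphotoxin beta, the inflammasome genes Pycard (0.89 ± 0.17) and Casp1 (0.85 ± 0.16), which process IL-1 beta, and the kinase gene Ripk3 (0.58 ± 0.12).

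Of 17 genes of the noncanonical pathway 9 were higher and 1, Chuk, was lower. Beside Ltb these include Tnfrsf12a (1.10 ± 0.21), the receptor of TWEAK, Tnfsf13b (0.98 ± 0.17), the gene of BAFF, and Traf2 (0.42 ± 0.06), a subunit of the complex that degrades the NF-kB inducing kinase. Of 32 further target genes 20 were higher and 2, Sod2 and Il15, lower, with a median of 0.50. The largest changes were those of Lcn2 (4.04 ± 0.49), the gene of lipocalin 2, Socs3 (2.23 ± 0.30), C3 (2.001 ± 0.28) and Ccl5 (1.45 ± 0.27). At onset against 23 weeks without proteinuria 6 of the 107 were higher, beside 1.71% of all genes, namely Nfkbiz (0.72 ± 0.19), Birc2 (0.37 ± 0.10), Icam1 (0.80 ± 0.16), Cxcl10 (0.9997 ± 0.25), Socs3 (1.17 ± 0.32) and Lcn2 (2.25 ± 0.53). In NZM2410 48 of the 107 were higher and 7 lower, beside 11.4% and 13.8% of all genes, among them Nfkbie (1.83 ± 0.25), Nfkbiz (1.90 ± 0.17) and Tnfrsf12a (2.29 ± 0.29). In NZW/BXSB 37 were higher and 4 lower, beside 11.4% and 8.73% of all genes, among them Nfkbie (0.94 ± 0.11), Nfkbiz (0.79 ± 0.18) and Tnfrsf12a (0.90 ± 0.25).

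**Figure D4:**
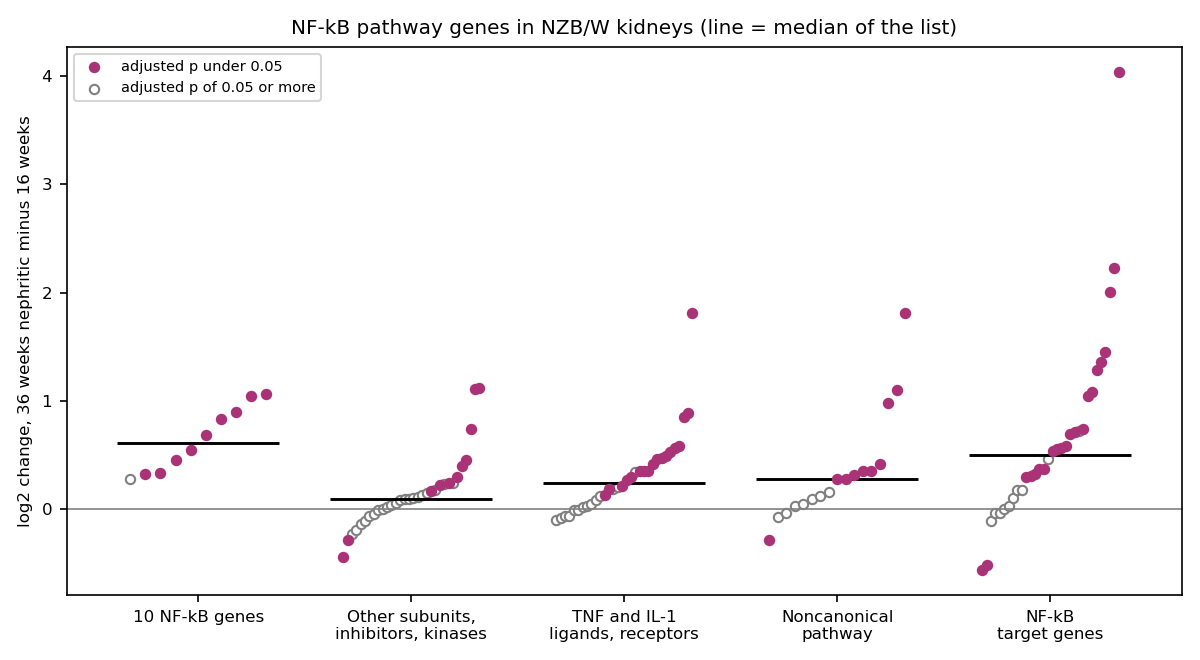
Log2 changes from 16 to 36 weeks in NZB/W kidneys (y axis) for the 10 genes and the 4 pathway lists (x axis), ordered by size within a list, with filled points for an adjusted p under 0.05 and a line at each list's median. The medians are 0.61, 0.09, 0.24, 0.27 and 0.50, and Lcn2 at 4.04 is the highest point; a gene on 2 lists is drawn in both.

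Cell type markers moved with these groups, and the shares of all genes called, given above, apply to their counts too. Of 20 mononuclear phagocyte markers 19 were higher at 36 than at 16 weeks and 11 at onset against 23 weeks, as were 17 in NZM2410 and 18 in NZW/BXSB nephritis. Their mean ran between 7.03 and 7.47 over the 16-week kidneys and between 7.95 and 9.43 over the 36-week ones. Of 13 T cell markers 10 and of 9 B cell markers 7 were higher at 36 weeks, and all 12 proximal tubule markers were lower. In NZM2410 11 of the 12 proximal tubule markers were lower and in NZW/BXSB 2. Of 9 neutrophil markers 3 were higher at 36 weeks and none in the other strains. The part of these cells in the members' changes was not tested across groups.

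Within the 10 kidneys of the 36-week group, members were set against the phagocyte marker mean, 10 relations in all. Il1b followed it most closely, with r = 0.81 and rho = 0.81 (permutation p = 0.00538 and 0.00749, adjusted 0.0538 and 0.0749), so no relation passed after adjustment. Without the 2 kidneys farthest from the median marker level r was 0.73. After quantile normalization the adjusted p of Il1b was 0.033 for r and 0.0499 for rho (permutation test). Birc3 gave r = 0.67 and rho = 0.64 (adjusted permutation p = 0.157 and 0.18) and Relb r = 0.65 and rho = 0.67 (0.157 and 0.18). Without the 2 kidneys, which had the lowest marker means, their r fell to 0.33 and 0.44. After quantile normalization these values were 0.52 and 0.49. The omission also narrows the range of marker levels, so the fall does not show how far the relations rest on those samples. Nfkbia gave r = -0.02 and rho = 0.01. Against the T cell marker mean, a family of 10 relations, Il1b gave r = 0.62 and rho = 0.72 and Nfkbia r = -0.67 and rho = -0.71 (adjusted permutation p = 0.285 for both r and 0.131 for both rho). Against the B cell mean, again 10 relations, they gave r = 0.53 and rho = 0.60 and r = -0.50 and rho = -0.58 (0.692 for both r and 0.443 for both rho). Without the 2 kidneys farthest from the median marker level r for Il1b was 0.29 and 0.068 and for Nfkbia -0.54 and -0.68. No relation to either list passed. Against the proximal tubule mean, another 10 relations, Birc3 gave r = -0.81 and rho = -0.83 (adjusted permutation p = 0.0522 and 0.0425) and Tnfaip3 r = -0.72 and rho = -0.79 (0.0766 and 0.0425), so both passed by rank and not by r. Without the 2 kidneys farthest from the median tubule level r was -0.67 and -0.61.

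**Figure D5:**
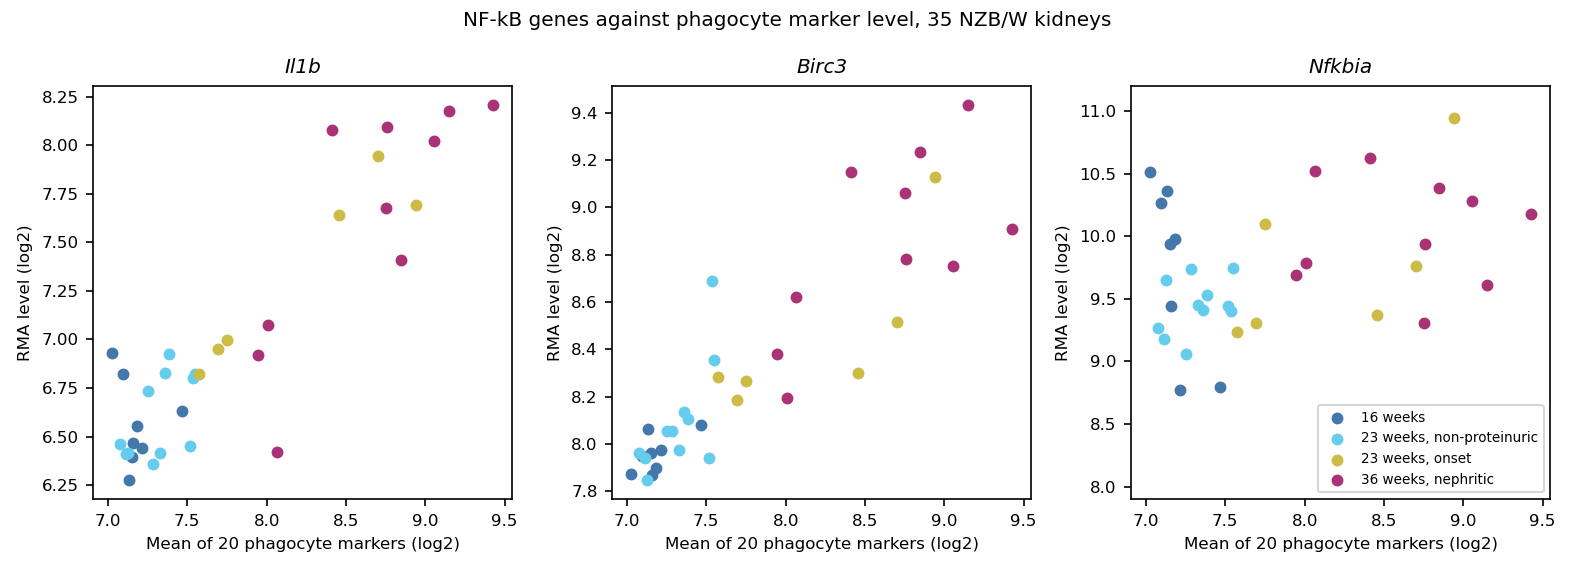
Levels of Il1b, Birc3 and Nfkbia (log2, y axis) against the mean log2 level of 20 phagocyte markers (x axis), 1 point per kidney for the 35 NZB/W arrays, coloured by group. In the 36-week group r was 0.81 for Il1b, 0.67 for Birc3 and -0.02 for Nfkbia; the groups also differ along both axes.

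The genes with the most similar pattern to each member were taken among the genes outside the 10, by Pearson r over the 57 samples, each strain centred on its own mean. The samples share their groups, so these values describe the group shift as much as the kidneys. Relb and Birc3 were both most like Sting1 (r = 0.95 each) and then Icam1 (0.94 each), and Nfkb2 was also most like Sting1 (0.87). Rela was most like Stat3 (0.94), Tnfaip3 like Tlr2 (0.94) and then Nfkbie (0.92), and Bcl3 and Nfkb1 like Tifa (0.93 and 0.89). Some members were close to each other too. The r of 0.91 between Nfkb1 and Bcl3 was above that of Nfkb1 with Tifa and below that of Bcl3 with Tifa. Tnfaip3 and Birc3 gave r = 0.93, below the r of Tnfaip3 with Tlr2 and of Birc3 with Sting1. Il1b was most like Wfdc17 (0.88) and Fpr2 (0.88), and Tnf like Gm12185 (0.84) and Cd4 (0.82). Nfkbia was most like Ddit4 (0.88), Rgs2 (0.81) and Ptp4a2 (0.79).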

How the data were processed

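Total RNA of whole kidneys was labelled and hybridised to Affymetrix arrays, per the labels' protocols. The deposited values are log2 levels per gene from RMA, per the submitters' processing notes, with 1 table per strain; the probe set definition, array type and RMA version are not given in the sources used here. A yes or no flag deposited by the authors marks genes above a baseline of theirs. Groups came from the labels. Each strain table was fitted alone with limma 3.58.1 in R 4.3.3, with all groups of a strain in 1 fit, no covariate and Benjamini-Hochberg adjustment over 16475 genes; the threshold was 0.05. Strain differences used the 2 fits' estimates and errors with Satterthwaite degrees of freedom. Single values used permutation tests, exact or with 100000 resamples. The fit was tested on simulated data. No 2 arrays held identical values. The number of arrays limits precision.

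The 10 members and the gene and marker lists were chosen with earlier results of these data known. Named pathway genes are, per list, up to 4 called from 16 to 36 weeks by size of change, plus any called at onset against 23 weeks; the 3 most similar genes per member were kept. Alternatives were quantile normalization, flagged genes only, array weights, the Gapdh signal or hybridization controls as a covariate, a replicate block, the title stem as a random block, only the 2 groups compared, leaving out each array, and, chosen after seeing the data, 16-week replicates 4 to 8 alone.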

Additional observations from a re-analysis of the deposited data

Results flagged for a closer look

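Within groups of 4 to 10 arrays, an array far from the rest was sought by Dixon's test for the 10 genes in 70 combinations of gene and group, and 8 were found (11.4%, where chance gives about 5%). Members move together and the same array recurs among the 8. The combinations are therefore not independent, and the share does not show an excess. Replicate 5 at onset was far above the other onset kidneys for Nfkb1 (9.58), Rela (9.80) and Birc3 (9.13). Prenephritic NZW/BXSB replicate 5 was far above its group for Nfkb1 (9.88), Relb (7.52) and Nfkbia (10.91). In prenephritic NZM2410 kidneys replicate 1 was far below the others for Nfkbia (9.18), and replicate 5 far above them for Tnf (6.97).

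The change from the prenephritic to the nephritic group differed between strains, by a test of the difference, for Relb between NZB/W and NZM2410 (-0.76) and between NZM2410 and NZW/BXSB (0.71), and for Rela between NZM2410 and NZW/BXSB (0.50). In NZB/W that change spans 16 to 36 weeks, so nephritis and age cannot be told apart in it. All 3 calls stand near the threshold, with adjusted p of 0.0449, 0.0477 and 0.0498 in that test. They were lost without any 1 of 16 of 28, 16 of 22 and 17 of 22 arrays.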

How the results depend on the processing

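From 16 to 36 weeks 8 or 9 members were called under every alternative, from 23 to 36 weeks 7 to 9, in NZM2410 8 to 10 and in NZW/BXSB 7 to 9. The onset counts were not stable. Against 16 weeks, 1 member became 0 with quantile normalization, the Gapdh covariate, the replicate block or the title stem, 2 with flagged genes, 5 with the hybridization covariate or only the 2 groups, and 7 with array weights. Genes called in all numbered 328, against 346, 611, 519 and 2662 with flagged genes, the hybridization covariate, the 2 groups and array weights. In the settings that gave 0 members they ran from 142 to 254. Against 23 weeks, 1 became 0 with either covariate, the replicate block or the stem, 3 with only the 2 groups and 4 with array weights. The hybridization controls of those 2 groups do not overlap, so that covariate cannot be told apart from the group. Genes called in all there numbered 345, against 1141 with only the 2 groups and 2167 with array weights. In the settings that gave 0 members they ran from 114 to 224. Between 23 and 16 weeks array weights gave 2 in place of 0, while genes called in all rose from 3 to 3697 of 16475. Between 36 weeks and onset array weights or the replicate block gave 5 in place of 0. Genes called in all rose there from 382 to 2352 and 1882. Among strain differences, array weights gave 5 (from 1), 1 (from 0) and 5 (from 2), and quantile normalization or the replicate block gave 1 (from 2) for NZM2410 against NZW/BXSB. With array weights, genes called in all rose from 283 to 2732, from 951 to 5419 and from 911 to 4483. For NZM2410 against NZW/BXSB they numbered 943 with quantile normalization and 681 with the replicate block. For the phagocyte relation quantile normalization gave 1 in place of 0. The cause was not tested.

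Leaving out 1 array gave 8 to 9 members from 16 to 36 weeks, 0 to 4 and 0 to 2 at onset against 16 and 23 weeks, 0 to 0 between 23 and 16 weeks, 7 to 9 from 23 to 36 weeks, 0 to 4 from onset to 36 weeks, 8 to 10 in NZM2410 and 7 to 8 in NZW/BXSB. For strain differences it gave 0 to 4, 0 to 0 and 0 to 3 (NZB/W against NZM2410, NZB/W against NZW/BXSB, NZM2410 against NZW/BXSB). Genes called in all moved as well. They ran from 3625 to 4837 from 16 to 36 weeks, and from 70 to 507 and 39 to 452 at onset. From onset to 36 weeks they ran from 19 to 2008, and for the strain differences from 138 to 1170, 496 to 1480 and 507 to 1886.

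Signs turned for small differences. Nfkbia turned to -0.13 (36 against 16 weeks) and -0.50 (onset against 16 weeks) with array weights and to -0.18 and -0.43 with 16-week replicates 4 to 8. Between 23 and 16 weeks the hybridization covariate turned Nfkb1 to -9.3e-05, Tnfaip3 to -0.0134, Tnf to -0.091 and Il1b to -0.0133, the stem turned Tnfaip3 to -0.12 and Il1b to -0.11, and array weights turned Il1b to -0.034. The hybridization covariate turned Tnf at onset against 23 weeks to 0.26 and Nfkb1 from onset to 36 weeks to -0.030. Tnf in NZW/BXSB turned to -0.024 (quantile), -0.00617 (Gapdh) and -0.00979 (stem). For NZB/W against NZW/BXSB array weights turned Nfkb2 to -0.059 and Birc3 to -0.13, quantile normalization Tnfaip3 to 0.0094, and the replicate block Tnfaip3 to 0.062 and Bcl3 to 0.00398. Array weights turned Bcl3 for NZM2410 against NZW/BXSB to -0.00996.

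Without 1 array Nfkbia at onset against 16 weeks ran from -0.20 to 0.14 and Tnf from -0.027 to 0.12, Nfkb2 at onset against 23 weeks from -0.0017 to 0.12, Il1b between 23 and 16 weeks from -0.0044 to 0.089, Tnf in NZW/BXSB from -0.022 to 0.068, and Tnf for NZB/W against NZM2410 from -0.034 to 0.11. For NZB/W against NZW/BXSB without 1 array the difference ran from -0.022 to 0.074 for Nfkb2, from -0.19 to 0.024 for Relb, from -0.16 to 0.073 for Tnfaip3, from -0.069 to 0.076 for Birc3 and from -0.21 to 0.018 for Bcl3.

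Replicate numbers were not taken to pair the samples, since in no comparison were the deviations of all same-numbered pairs correlated above 0.1. In NZB/W this held for 1 of 8 pairs (36 against 16 weeks), 2 of 6 (onset against 16), 3 of 6 (onset against 23), 1 of 8 (23 against 16), 8 of 10 (36 against 23, median r = 0.19) and 1 of 6 (36 weeks against onset), in NZM2410 for 1 of 5 and in NZW/BXSB for 2 of 6, and at most 1 sample a comparison correlated best with its own number. The title stem could not be fitted for NZM2410. Genes called in all from 16 to 36 weeks numbered 4338, against 6542 with array weights, 2527 with the Gapdh covariate and 2570 with the stem, and at onset against 16 weeks 328 against 2662 with array weights.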
